A study of Mus musculus with 32 samples.

Results

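The voltage-gated sodium and calcium channel genes are the 32 mouse genes whose symbol begins with Scn, a number and a or b, or with Cacna or Cacnb, of 55415 features counted. They encode the pore-forming and auxiliary subunits of the channels that open when a membrane depolarizes. Of the 32 genes, 25 had enough counts to be tested and 7 were too low. The 25 tested genes stood among 10679 tested genes in all.

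Expression was measured in striatum from 4 groups of 8 mice, 1 library per mouse. YAC128 mice, on a B6 background, carry a yeast artificial chromosome with a human huntingtin gene whose repeat is expanded, driven by its own human regulatory sequence, and are used to model Huntington disease. Groups of YAC128 mice, 3 in all, differed in what was injected into the lateral ventricle: artificial cerebrospinal fluid (aCSF) alone, or aCSF with the antisense oligonucleotide AON12.1 or with a scrambled control. The remaining group was wild-type (WT) littermates given aCSF, so all 4 groups underwent surgery and injection. Injections numbered 3, starting near 6 months of age and repeated after 2 and 4 weeks, with 500 µg oligonucleotide in 10 µL for the oligonucleotide groups. Tissue was taken at 12 months.

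In such channels 1 large alpha subunit forms the ion pore and senses voltage. Sodium channels carry the upstroke of the action potential, and their small beta subunits set gating and placement in the membrane. Calcium channels turn depolarization into calcium entry, which drives transmitter release, dendritic signalling and pacemaking, while their alpha2delta and intracellular beta subunits control how many channels reach the surface. Striatal projection neurons, the main neurons of this tissue, depend on these currents for their depolarized plateau and firing.

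Library totals ran from 658934 to 1419313 counts, with a mean of 958910. The feature for human HTT lay between 0 and 7.064 CPM (counts scaled to a common library size) in the WT libraries and between 94.38 and 187.5 CPM in the YAC128 libraries, as the genotype labels state. Libraries differed in the share of counts outside any gene feature, from 16.34% to 33.67%. The median of this share was 18.34% in WT, 27.54% in YAC128 aCSF, 21.56% in the AON12.1 group and 21.43% in the scrambled group. Markers of striatal projection neurons were all present (14 of 14 tested, none at 0 throughout). Their summed level ran from 5797 to 12540 CPM in WT, 3985 to 7900 in YAC128 aCSF, 6770 to 12400 in the AON12.1 group and 3788 to 8896 in the scrambled group. Markers of cortical excitatory neurons (7 of 10 tested, none at 0 throughout) summed to 231.3 to 667.5 CPM in WT, 199.1 to 721.7 in YAC128 aCSF, 219.8 to 744.2 in the AON12.1 group and 272.4 to 1416 in the scrambled group. In 1 YAC128 aCSF library there were 3924 CPM of choroid plexus and ependyma markers, against at most 401.2 CPM in any library of the other groups. Thalamus or hypothalamus markers summed to 57.64 to 558.8 CPM in WT and 96.9 to 562.3 in YAC128 aCSF. For these markers the AON12.1 group ran from 37.22 to 150.9 CPM and the scrambled group from 53.74 to 219.6. Animal numbers began with 18 or 19, and the 18 series held 3 WT, 4 YAC128 aCSF, 2 AON12.1 and 2 scrambled mice.

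No channel gene passed the test between any pair of groups. In edgeR's quasi-likelihood test, adjusted by the Benjamini-Hochberg method over all tested genes, 0 of 25 passed an adjusted p of 0.05 in each of the 6 comparisons and in the test of any difference among the 4 groups. DESeq2 and limma-voom also called 0 in all 7. The background was low as well. The share of all tested genes called was 0.0749% for YAC128 aCSF against WT, 0.14% for AON12.1 against scrambled, 0.309% for AON12.1 against aCSF and 0.0843% for scrambled against aCSF. It was 0.562% for AON12.1 against WT, 0.169% for scrambled against WT and 0.777% for any difference. The groups overlapped for every tested channel gene in every comparison. Groups without overlap were rare among all tested genes too: 0.0843% for YAC128 aCSF against WT, 0.0843% for AON12.1 against scrambled, 0.187% for AON12.1 against aCSF, 0.0562% for scrambled against aCSF, 0.243% for AON12.1 against WT and 0.103% for scrambled against WT. In bulk tissue, fewer cells of a type and less RNA per cell cannot be told apart, which applies to every level given here.

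Unadjusted p-values under 0.05 numbered 2 of 25 for YAC128 aCSF against WT (12.5% of all genes), 2 for AON12.1 against scrambled (7.25%), 5 for AON12.1 against aCSF (11.6%) and 3 for scrambled against aCSF (9.83%). Against WT they numbered 4 for AON12.1 (14.5%) and 1 for scrambled (9.8%), and 5 for any difference (14.9%). The median log2 difference over the 25 genes was 0.05 for YAC128 aCSF against WT and 0.03 for AON12.1 against scrambled, against medians near 0 over all genes (-0.004 and 0.007). It was 0.05 for AON12.1 against aCSF, 0.08 for scrambled against aCSF, 0.06 for AON12.1 against WT and 0.06 for scrambled against WT. The medians over all genes in these comparisons were 8.9e-05, -0.002, 0.008 and 0.007. Several comparisons use the same libraries, so their values are tied to each other. For 10 of 25 genes all 6 of the 95% intervals lay within 1.5-fold, and for 23 of 25 they lay within 2-fold. Scn4b and Scn9a were the 2 genes with an interval past 2-fold. The 95% intervals are for single comparisons, not adjusted for the number of genes.

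**Figure D1:**
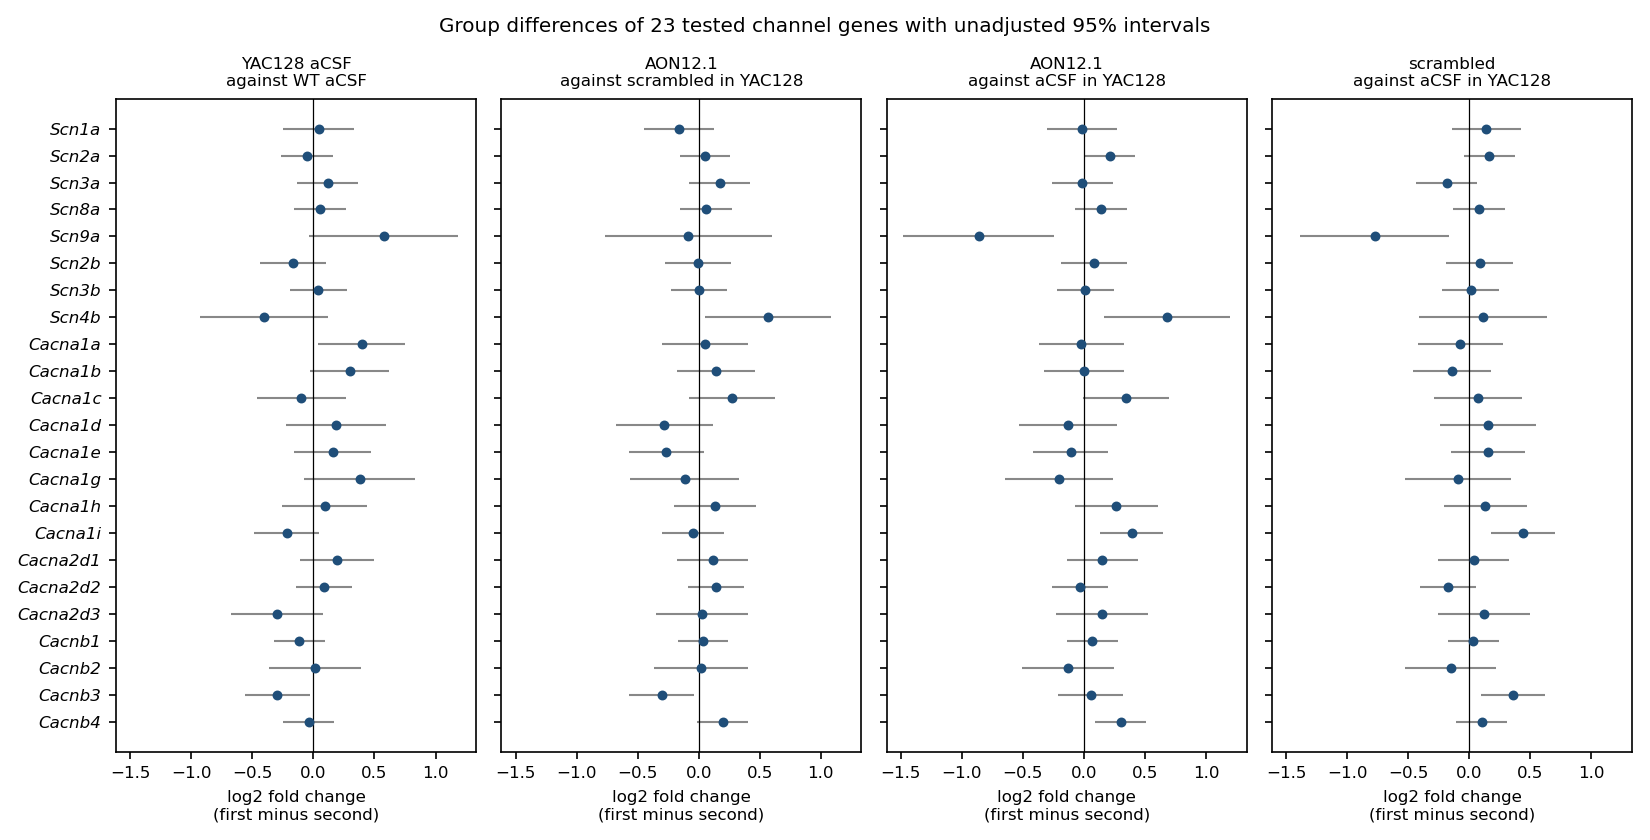
Log2 fold change of 23 tested channel genes (rows) in 4 of the comparisons (panels), as points with unadjusted 95% intervals from edgeR's quasi-likelihood fit, 8 libraries per group. Points scatter on both sides of 0, and the widest intervals belong to Scn9a and Scn4b.

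The sodium channel pore-forming genes numbered 10, of which 6 were tested. Scn2a and Scn8a encode the main sodium pores of brain axons. Scn2a lay at 228.6 ± 26.52 CPM in WT, 220.4 ± 36.03 in YAC128 aCSF, 255 ± 35.37 in the AON12.1 group and 246.2 ± 36.44 in the scrambled group (SD, n = 8 each). Scn8a lay at 213.9 ± 20 CPM in WT, 221.7 ± 38.67 in YAC128 aCSF, 244 ± 22.44 in the AON12.1 group and 234 ± 46.5 in the scrambled group. All 6 intervals for both genes stayed within 1.5-fold. Scn1a, prominent in fast-spiking interneurons, had group means between 53.79 and 61.77 CPM, and Scn3a, highest in the developing brain, between 96.62 and 110.3 CPM. These gene-by-gene levels are not compared between genes, since 3' counts of different genes are not on one scale.

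Scn9a encodes a sodium pore best known from pain-sensing neurons. Its lowest, median and highest CPM were 5.278, 8.578 and 20.02 in WT, 7.508, 10.98 and 33.36 in YAC128 aCSF, 1.618, 8.178 and 12.08 in AON12.1, and 3.194, 8.447 and 12.04 in scrambled libraries. The ranges overlapped, and the highest value belonged to 1 YAC128 aCSF library. The log2 fold change was -0.86 ± 0.306 (SE) for AON12.1 against aCSF (fold 0.5499, 95% interval 0.358 to 0.8448, edgeR adjusted p = 0.225). It was -0.78 ± 0.302 for scrambled against aCSF (adjusted p = 0.39) and 0.58 for YAC128 aCSF against WT. Without YAC128 aCSF replicate 2 these 3 values became -0.52, -0.44 and 0.24. The AON12.1 difference was -2.07 in the 18 series and -0.11 in the 19 series, and the scrambled difference -1.35 and -0.13. With the share of counts outside genes in the fit, the YAC128 aCSF difference from WT became 0.06. The share itself was higher in YAC128 aCSF than in WT libraries on the median, so share and group are not fully separated there. With 308 counts over all libraries and 10 or more counts in 13 of 32, this gene had the widest intervals. Scn9a also overlaps 3 annotated genes, 2 on the opposite strand, and the strandedness of counting was not given in the sources used here.

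The sodium channel genes that were too low to test were Scn4a, the skeletal muscle pore, with 1 count in all 32 libraries, Scn10a with 14, Scn11a with 13 and Scn7a with 41. Scn10a and Scn11a are pores of peripheral sensory neurons. No library held more than 6 counts of any of these genes. Without the filter on low counts edgeR tested all 32 channel genes and called 0 in each comparison. Scn1a, Scn2a, Scn3a, Scn7a and Scn9a lie together on chromosome 2, and Scn10a and Scn11a on chromosome 9.

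All 4 sodium beta subunit genes were tested. Scn2b had group means of 198.3 to 223 CPM and Scn3b of 70.31 to 72.85 CPM.

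Scn4b, whose beta subunit is abundant in striatal projection neurons, had a coefficient of variation of 44.7% over the 32 libraries. Its lowest, median and highest CPM were 76.53, 165.1 and 261.2 in WT, 52.89, 108.2 and 177.1 in YAC128 aCSF, 139.4, 167.8 and 383.5 in AON12.1, and 49.99, 100.3 and 208.7 in scrambled libraries. The AON12.1 and WT medians were close, the YAC128 aCSF and scrambled medians lower, and all ranges overlapped, with 1 AON12.1 library apart at 383.5 CPM. AON12.1 against scrambled gave a log2 fold change of 0.57 ± 0.255 (fold 1.482, interval 1.037 to 2.118, edgeR adjusted p = 0.639), AON12.1 against aCSF 0.68 ± 0.256 (adjusted p = 0.265), AON12.1 against WT 0.28 ± 0.254 (adjusted p = 0.65) and YAC128 aCSF against WT -0.40 ± 0.258 (adjusted p = 0.528). Within the 18 and 19 series the difference from scrambled was 0.63 and 0.55, and that from aCSF was 1.497 (adjusted p = 0.0388) and 0.25. The 18 series held only 2 AON12.1 libraries, and the library at 383.5 CPM was 1 of them. Over fits with 1 library left out, the smallest AON12.1 difference was 0.36 from scrambled and 0.47 from aCSF. Scn4b was named by the rule for its difference from scrambled libraries, and its other differences were added after their values were seen.

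**Figure D2:**
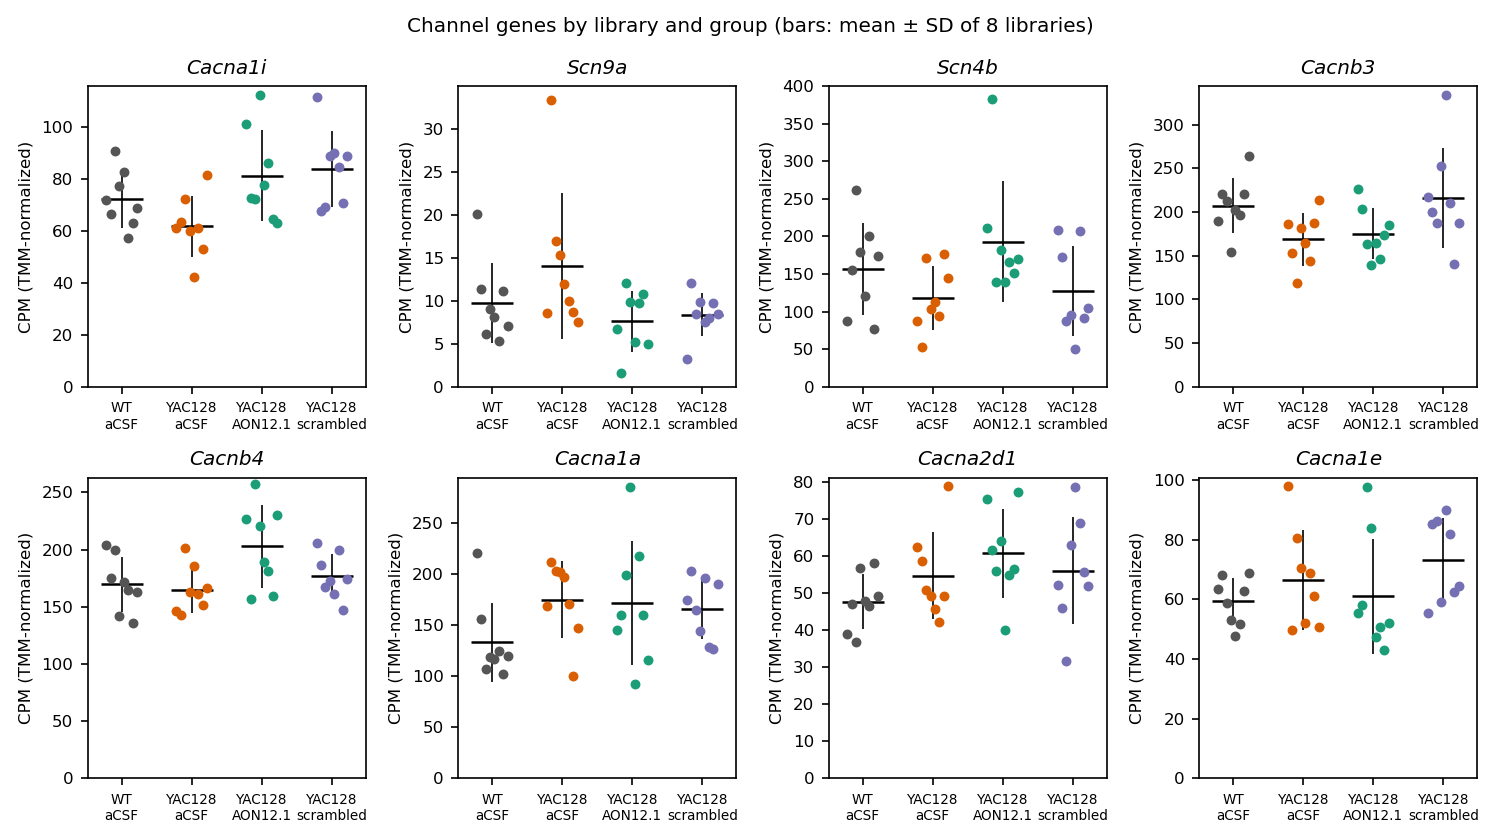
Normalized CPM of 8 channel genes in each of the 32 libraries (points, by group) with the group mean and SD as the bar. The groups overlap for every gene shown, and 1 AON12.1 library lies at 383.5 CPM for Scn4b.

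The calcium channel pore-forming genes numbered 10, of which 8 were tested. Cacna1a encodes the P/Q-type pore of presynaptic terminals. Its lowest, median and highest CPM were 102.5, 119.2 and 220.2 in WT, 100.1, 183.4 and 211.6 in YAC128 aCSF, 92.62, 160 and 284.9 in AON12.1, and 126.5, 169.9 and 202.5 in scrambled libraries. All WT libraries but 1 lay at or below 155.6 CPM, with overlap from each YAC128 group. YAC128 aCSF against WT gave a log2 fold change of 0.40 ± 0.175 (fold 1.315, interval 1.029 to 1.681, edgeR adjusted p = 0.35), with 0.30 and 0.39 in the 18 and 19 series. AON12.1 against WT gave 0.37 ± 0.176 and scrambled against WT 0.32. With the share of counts outside genes in the fit, the differences of the YAC128 aCSF, AON12.1 and scrambled groups from WT became 0.05, 0.09 and 0.20. The share itself differed between groups, with medians of 18.34% in WT and 27.54% in YAC128 aCSF. Share and group are therefore not fully separated in this fit. The AON12.1 difference was -0.07 in the 18 series and 0.61 in the 19 series, and 0.23 without AON12.1 replicate 4. Over all fits with 1 library left out, the AON12.1 difference from WT ran from 0.23 to 0.52. The YAC128 aCSF difference from WT ran from 0.35 to 0.55, with a smallest edgeR adjusted p of 0.0967.

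Cacna1i encodes a T-type pore, opened by small depolarizations. Its lowest, median and highest CPM were 57.17, 70.41 and 90.75 in WT, 42.38, 61.14 and 81.65 in YAC128 aCSF, 63.25, 75.36 and 112.4 in AON12.1, and 67.88, 86.78 and 111.8 in scrambled libraries. YAC128 aCSF libraries were lowest and both oligonucleotide groups higher, with overlap. The log2 fold change was 0.44 ± 0.128 for scrambled against aCSF (fold 1.356, interval 1.134 to 1.622, edgeR adjusted p = 0.242) and 0.39 ± 0.128 for AON12.1 against aCSF (adjusted p = 0.19). AON12.1 and scrambled libraries differed by -0.05 ± 0.125 on the log2 scale. Within the 18 and 19 series the scrambled difference was 0.48 and 0.46. Both oligonucleotide comparisons share the aCSF libraries. Cacna1i had the smallest adjusted p of all channel genes in the test of any difference, 0.188 by edgeR.

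The other T-type pores, Cacna1g and Cacna1h, had group means of 33.4 to 44.51 CPM and 67.85 to 87.28 CPM. Cacna1b encodes the N-type presynaptic pore, and its group means ran from 48.09 to 58.62 CPM. Cacna1e, the R-type pore, ran from 59.4 CPM in WT to 73.16 CPM in scrambled libraries, a log2 difference of 0.31 ± 0.154 (edgeR adjusted p = 0.502). The L-type pores Cacna1c and Cacna1d, which couple depolarization to gene regulation and pacemaking, ran from 34.84 to 43.67 CPM and from 26.06 to 32.52 CPM. Cacna1f, a retinal pore, had 3 counts in all libraries together and Cacna1s, the skeletal muscle pore, had 26, so both were too low to test.

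Among the 4 calcium beta genes, all tested, Cacnb3 and Cacnb4 were described under the rule for the smallest p-values. Cacnb3 had lowest, median and highest CPM of 153.9, 207.5 and 264.7 in WT, 118.9, 173.6 and 214 in YAC128 aCSF, 139, 169.2 and 226.6 in AON12.1, and 140.4, 205.3 and 333.7 in scrambled libraries. WT and scrambled libraries were higher on the median than YAC128 aCSF and AON12.1 libraries, with overlap. On the log2 scale the difference was -0.30 ± 0.131 for YAC128 aCSF against WT (edgeR adjusted p = 0.352), -0.30 ± 0.13 comparing AON12.1 with scrambled libraries (adjusted p = 0.611), and 0.36 ± 0.13 for scrambled against aCSF (adjusted p = 0.357). With the cortical neuron marker level in the fit the last of these became 0.08. Over fits with 1 library left out, scrambled against aCSF ran from 0.24 to 0.42 and AON12.1 against scrambled from -0.38 to -0.19. Scrambled replicate 5, at 333.7 CPM, had the highest cortical neuron marker level of the 32 libraries, 6.93.

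Cacnb4 had lowest, median and highest CPM of 135.8, 167.9 and 203.7 in WT, 142.4, 162.2 and 201.3 in YAC128 aCSF, 157, 205.1 and 256.9 in AON12.1, and 147.3, 173.2 and 205.5 in scrambled libraries. AON12.1 libraries reached highest, with overlap. A log2 fold change of 0.30 ± 0.102 was found for AON12.1 against aCSF (fold 1.231, interval 1.066 to 1.421, edgeR adjusted p = 0.21). It was 0.26 ± 0.103 against WT (adjusted p = 0.238) and 0.20 against scrambled libraries. Within the 18 and 19 series the AON12.1 difference was 0.24 and 0.31 from aCSF, 0.01 and 0.41 from WT, and -0.02 and 0.27 from scrambled libraries. Cacnb1 had group means of 132 to 142.9 CPM and Cacnb2 of 24.73 to 28.19 CPM, and for both all 6 intervals lay within 1.5-fold. Cacnb2 overlaps 15 annotated genes, so some of its counts may be uncertain. Other channel genes share this limit, among them Cacna1d and Cacna2d3, which each overlap 7, and Cacna1c, which overlaps 3.

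Of the 4 alpha2delta genes, Cacna2d4 had 64 counts in all and was too low to test. Cacna2d2 had group means of 262.9 to 297 CPM. Cacna2d1, a receptor for gabapentin, ran from 47.63 CPM in WT to 60.73 CPM in AON12.1 libraries, a log2 difference of 0.35 ± 0.149 (edgeR adjusted p = 0.278). This difference was 0.78 in the 18 series and 0.175 in the 19 series. Cacna2d3 ran from 48.83 to 59.22 CPM. Cacna2d1 and Cacna2d3 are shown by their promoters because each of these paralogs had a slope called on a different marker level, described next. The difference between their slopes was not tested. The 250 bases before the RefSeq start of each (GRCm38.p6), 5′ to 3′ on the gene's strand with each CG in capitals, are Cacna2d1 at chr5:15934441-15934690 on the plus strand and Cacna2d3 at chr14:29721865-29722114 on the minus strand.
Cacna2d1: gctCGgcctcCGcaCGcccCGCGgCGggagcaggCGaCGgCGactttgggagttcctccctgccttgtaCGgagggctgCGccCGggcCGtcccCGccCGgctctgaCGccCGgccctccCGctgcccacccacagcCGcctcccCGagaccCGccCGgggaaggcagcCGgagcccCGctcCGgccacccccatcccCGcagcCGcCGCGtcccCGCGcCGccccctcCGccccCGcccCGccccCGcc
Cacna2d3: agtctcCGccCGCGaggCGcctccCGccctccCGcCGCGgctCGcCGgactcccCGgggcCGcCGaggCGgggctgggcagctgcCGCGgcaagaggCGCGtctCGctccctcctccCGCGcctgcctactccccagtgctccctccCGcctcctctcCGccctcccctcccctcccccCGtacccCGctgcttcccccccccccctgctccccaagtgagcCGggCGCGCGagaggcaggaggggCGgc
The printed stretches held 36 and 30 CG. In the 300-base window that reaches 50 bases past the start, they held 42 and 41, where the median over 32851 windows was 7, and 97% and 96.5% of windows held fewer. Both windows held CCGCCC, the letters of a GC box, which 35.7% of all windows held and 14 of 34 windows of channel genes held. TATAAA was found in 13.6% of all windows and 2 of 34. The left part of the REST element, TTCAGCACC, was in 0 of the 34 windows and 0.371% of all windows. All motifs were searched on both strands. A match is a description of letters, and 8 of the 32 genes had no window.

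Channel genes were then set against 3 measures of the library itself, in fits that kept the 4 groups as terms. These fits were added after the data were seen, and the measures come from the same libraries as the genes. Per 10 percentage points of counts outside any gene feature, 9 of 25 channel genes had a slope called by edgeR (36%), against 14.6% of all tested genes. Of these, 7 rose, where 9.49% of all genes rose: Cacna1a by 0.59 on the log2 scale (adjusted p = 6.5e-06), Scn9a by 0.89, Cacna1d by 0.56, Cacna1e by 0.40, Cacna1b by 0.39, Cacnb2 by 0.37 and Scn3a by 0.30. The other 2 fell, where 5.08% of all genes fell, among them Cacnb3 by 0.27 (adjusted p = 0.0458). Among the 14 tested pore genes 6 rose and 0 fell. What the share stands for in these libraries was not tested.

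With fewer libraries fewer genes were called, among the channel genes and over all genes. In the 18 series none of the 9 was called, beside 56 of 10941 genes in all. In the 19 series Cacna1a, Cacna1d and Cacna1e were called, beside 478 of 11009. Some slopes stayed about as large: in the 18 and 19 series that of Cacna1a was 0.62 and 0.65 and that of Cacna1d 0.51 and 0.56. The Scn9a slope was 1.03 and 0.50. Others were smaller in the 18 series, such as Cacna1b at 0.05 and Cacna1e at 0.15, and Scn3a had the opposite sign (8 of 9 kept theirs). Without AON12.1 replicates 3 and 4, the 2 libraries farthest from the median share, Cacna1a and Scn9a (2 of the 9) were still called, beside 945 of 10866 genes in all, and all 9 kept their sign.

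Per log2 unit of the projection neuron marker level, Scn4b rose by 1.35 (edgeR adjusted p = 1.33e-05), Cacna2d3 rose by 0.93 (adjusted p = 0.000123) and Cacna1g fell by 0.86 (adjusted p = 0.00789), 3 of 25 against 4.36% of all genes (2.55% rising, 1.82% falling). In the 18 and 19 series the slope of Scn4b was 1.71 and 0.94, that of Cacna2d3 0.59 and 1.08, and that of Cacna1g -1.02 and -1.04. Scn4b was called in the 18 series, beside 132 of 10941 genes in all, and Cacna2d3 in the 19 series, beside 91 of 11009. With this level in the fit the Scn4b difference was 0.14 for AON12.1 against scrambled, 0.08 for AON12.1 against aCSF and 0.03 for YAC128 aCSF against WT. Scn4b is itself abundant in these neurons, so the fit cannot tell fewer such cells from less RNA of these genes per cell. Per log2 unit of the cortical neuron marker level, Cacnb3 rose by 0.34 (adjusted p = 2.66e-05) and Cacna2d1 by 0.25 (adjusted p = 0.0433), while Cacna2d2 fell by 0.20 (adjusted p = 0.0438). In all, 3 rose and 1 fell, 4 of 25 against 4.43% of all genes (2.77% rising, 1.66% falling). In the 18 series none of the 4 was called, and only 3 of 10941 genes in all were. In the 19 series 3 were called, Cacnb3 and Cacna2d2 among them, beside 224 of 11009. Cacna2d1 was called in neither series nor without the 2 libraries farthest from the median level, with slopes of 0.21, 0.26 and 0.23. Cacna2d2 had the opposite sign in the 18 series (0.07). The part of either cell type in these relations was not tested.

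**Figure D3:**
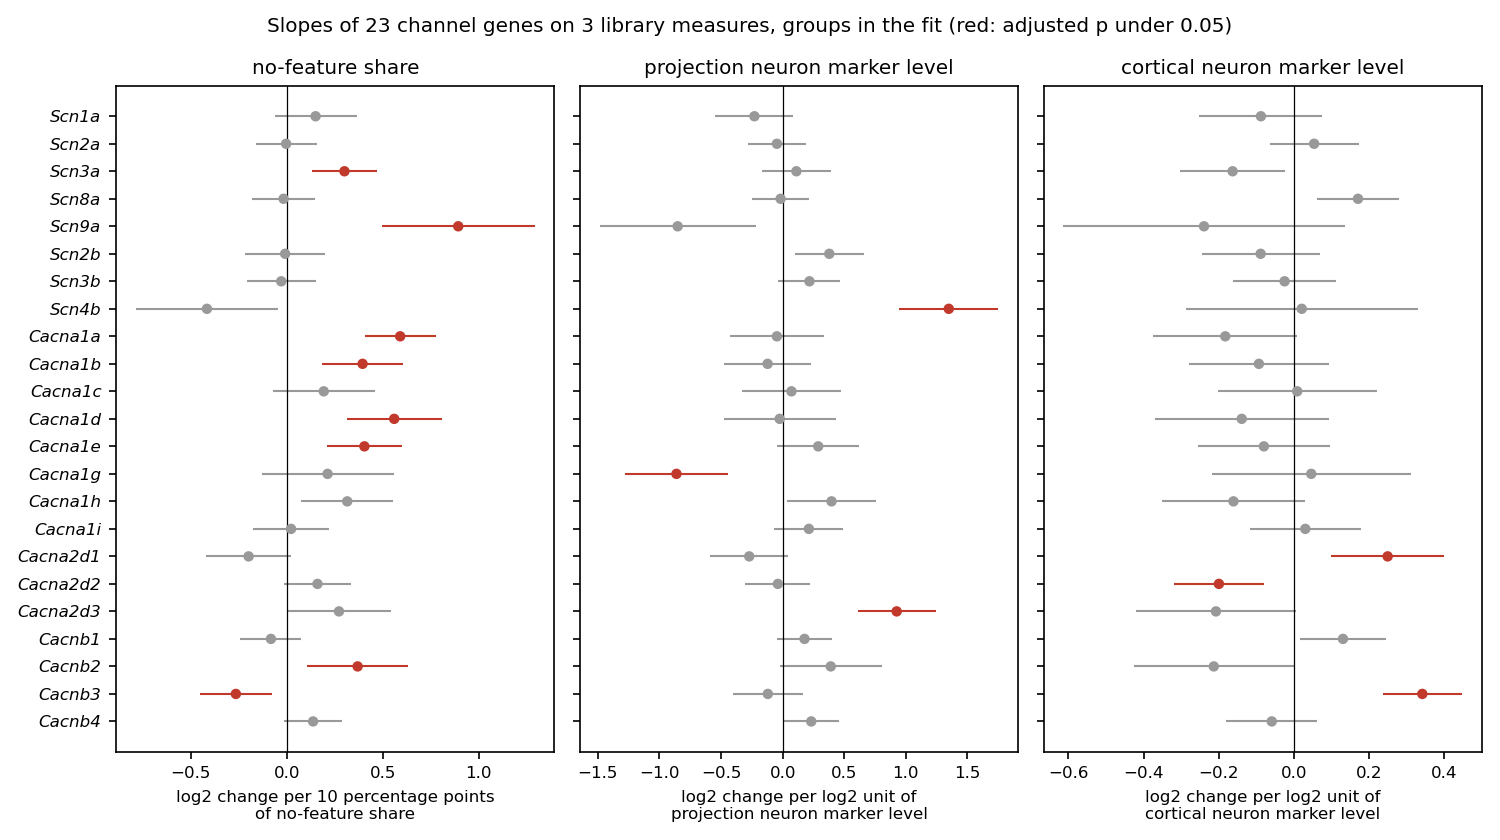
Log2 slope of 23 tested channel genes on the share of counts outside genes (per 10 percentage points) and on the projection and cortical neuron marker levels (per log2 unit), with 95% intervals and called genes in red. The largest upward slope within its panel is that of Scn9a on the share and that of Scn4b on the projection neuron level, in different units.

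**Figure D4:**
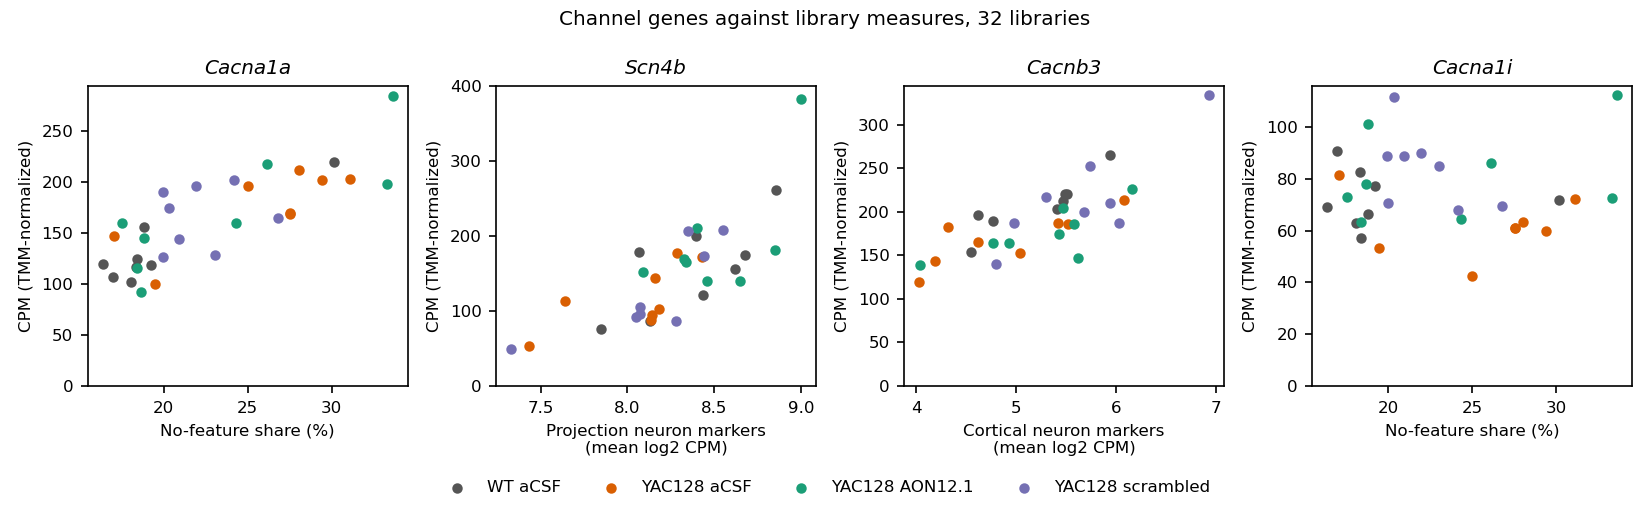
Normalized CPM of Cacna1a and Cacna1i against the share of counts outside genes, Scn4b against the projection neuron marker level and Cacnb3 against the cortical neuron marker level, 1 point per library, coloured by group. Cacna1a rises by 0.59 on the log2 scale per 10 percentage points of share, and the Cacna1i slope is 0.02.

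Genes that work with these channels were taken from a list of 53 symbols, of which 50 were in the files and 43 were tested: gamma subunits, binding FGFs, node scaffold, the sodium leak complex, calmodulin and release machinery. One, Nalcn, was called, in 3 of the 6 comparisons, and 0 rose. Over all tested genes the share called was 0.14% for AON12.1 against scrambled, 0.309% against aCSF and 0.562% against WT. Nalcn encodes the sodium leak channel, a relative of the voltage-gated pores, and its call was known from an earlier analysis of these libraries, so it adds no independent evidence. It lay at 39.8 ± 5.325 CPM in WT, 43.21 ± 6.39 in YAC128 aCSF, 24.33 ± 5.918 in the AON12.1 group and 39.96 ± 7.861 in the scrambled group. AON12.1 libraries ran from 17.56 to 34.46 CPM and overlapped the scrambled range of 27.61 to 50.03 CPM, but not the WT range of 35.1 to 49.28 CPM or the YAC128 aCSF range of 35.74 to 53.51 CPM. Of all tested genes, 0.243% had no overlap between AON12.1 and WT and 0.187% none between AON12.1 and aCSF. Nalcn was lower with AON12.1 by 0.71 ± 0.142 on the log2 scale against scrambled (edgeR adjusted p = 0.0157), 0.82 against aCSF and 0.70 against WT. Without AON12.1 replicate 8 the first of these had an adjusted p of 0.0532. Camk2a, a calcium-dependent kinase, was not called. It lay at 721.9 CPM in scrambled against 520.7 CPM in YAC128 aCSF libraries (edgeR adjusted p = 0.199). AON12.1 libraries, at 693.3 CPM, were also higher than aCSF libraries (edgeR adjusted p = 0.116) and differed from scrambled libraries by -0.06 on the log2 scale.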

How the data were processed

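RNA from striatum was converted to 3' libraries by a modified mcSCRB-seq method with molecular identifiers, per the labels' protocols. The deposited values are whole-number gene counts, made by the authors with FastQC, cutadapt 2.10, STAR 2.7.5a and HTSeq 0.12.4 on GRCm39, per the submitters' processing notes. Collapsing by molecular identifier and use of strand were not given in the sources used here, and intervals rest on the spread between mice. The 5 summary lines stayed out of totals and tests. Gene names were matched by identifier to a GRCm38 annotation, and 52081 of 55415 features had one.

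Counts were fitted over all 32 libraries with edgeR 4.0.16 (R 4.3.3, TMM scaling, quasi-likelihood test, filterByExpr with a minimum count of 10), and p-values were adjusted by Benjamini-Hochberg over 10679 genes. CPM values are TMM-normalized. The members and lists were chosen with earlier results of these data known. Named genes were the 3 with the smallest p in each comparison and any called. Some genes are counted but not reported here by name. Marker levels are the mean log2 CPM of tested markers, with a prior count of 2. Code was checked on simulated data. Alternatives included DESeq2 1.42.0, limma-voom 3.58.1, other filters and scalings, single number series and each library left out.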

Additional observations from a re-analysis of the deposited data

Results flagged for a closer look

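The values of 9 of 100 groups of 8 libraries stood apart by Dixon's criterion, where chance alone gives about 1 in 20. In each case 1 library lay far from the other 7. WT replicate 1 held 220.2 CPM of Cacna1a, where the others ran from 102.5 to 155.6, and 43.56 CPM of Cacna1d, against 16.71 to 28.16, and 20.02 CPM of Scn9a, against 5.278 to 11.34. That library had 30.16% of its counts outside genes. YAC128 aCSF replicate 5 held 72.8 CPM of Cacna1g, against 30.18 to 48.94. YAC128 aCSF replicate 2 held 33.36 CPM of Scn9a, against 7.508 to 16.99. WT replicate 6 held 170.6 CPM of Scn2a, below the others at 220.8 to 258. AON12.1 replicate 2 held 383.5 CPM of Scn4b, against 139.4 to 211.1. AON12.1 replicate 5 held 193.7 CPM of Scn8a, below the others at 235.6 to 267, and scrambled replicate 5 held 332.4 CPM, against 187.4 to 255.1.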

How the results depend on the processing

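Each library was left out only in comparisons that use its group. In the group comparisons, 0 channel genes were called in every fit run except among animals numbered from 18, where 2 AON12.1 and 4 aCSF libraries gave 2 calls, Scn4b (1.497, adjusted p = 0.0388) among them, and 1 call for any difference. Replicate 2, at 383.5 CPM of Scn4b, was 1 of those 2 AON12.1 libraries. Over all genes that setting called 276 of 10941 for AON12.1 against aCSF, against 33 in the full set. Of 683 values of named genes under alternatives, 668 kept their direction and their side of the threshold. In the 18 series Cacna1a for AON12.1 against WT became -0.0695, Cacnb3 for AON12.1 against scrambled 0.0471 and Cacnb4 for AON12.1 against scrambled -0.0186. Scn4b for YAC128 aCSF against WT became 0.0273 with the projection neuron level in the fit. For these 4 the cause was not tested. Slopes on the share called 0 channel genes in the 18 series, 3 in the 19 series and 3 without the 2 farthest libraries, where all-gene calls fell from 1555 to 56, 478 and 945. Slopes on the projection neuron level called 1 in the 18 series and 1 in the 19 series, where all-gene calls fell from 466 to 132 and 91. Slopes on the cortical neuron level called 0 in the 18 series and 2 without its 2 farthest libraries, where all-gene calls fell from 473 to 3 and 262. Nalcn lost its call within each number series in all 3 comparisons and among libraries with a share up to 25% against scrambled and aCSF. Its log2 differences in the 18 and 19 series were -0.75 and -0.69 against scrambled, -0.84 and -0.77 against aCSF and -0.54 and -0.77 against WT. With only the 2 groups compared, it lost its call against scrambled. Leaving out 1 library moved the number of all genes called for YAC128 aCSF against WT from 8 to between 3 and 142, the latter without WT replicate 1, with 0 channel genes called. No paired analysis was possible because the labels carry only animal numbers that the groups do not share. A mean total of 958910 counts per library limits the 7 low genes and Scn9a.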
